A study of Arabidopsis thaliana with 9 samples.

Results

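Mature miRNA entries of the families miR1886 to miR4999, without miR2111 and miR3932b, were examined in Arabidopsis leaves. The digits after "miR" in the entry name chose the members, which gave 30 of the 427 entries in the count tables, from 23 annotated hairpins. Numbers are given to plant and animal miRNAs in order of registration, so these entries were registered after the first widely conserved plant families and before the entries numbered 5000 and above, here called late entries. Small RNA came from leaves of 3-week-old plants of 3 genotypes with 3 libraries each: WT, se-2 and chr2. The se-2 plants carry a mutation in SERRATE, a zinc finger protein of the complex in which DCL1 cuts primary miRNA transcripts, and the chr2 plants carry one in CHR2, the ATPase of a SWI/SNF chromatin remodeller also known as BRM. Its title presents the study as one of CHR2 and SERRATE in miRNA production. Neither mutated gene is measured by miRNA counts, so the genotype labels were not checked, and no leaf marker gene can be read from miRNA entries. The labels do not say whether libraries of a genotype came from separate plants, and p-values therefore measure the spread between these libraries alone.

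A plant miRNA is cut in the nucleus from a folded primary transcript, in most cases by DCL1 with the help of HYL1 and SERRATE. A cut leaves a short duplex, of which 1 strand is loaded into an ARGONAUTE protein and guides it to nearly complementary transcripts. The partner strand is usually degraded, and where both are annotated they are named 5p and 3p after their place in the hairpin. Many numbered entries of limited conservation are rare in sequenced libraries, and some young miRNAs are cut by DCL4 in place of DCL1.

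All 30 names were matched to the RefSeq annotation of TAIR10.1, from which sequences and coordinates were taken. Of the 30 sequences, 24 had 21 nt, 4 had 22 nt and 2 had 20 nt, and 16 began with U, 7 with A, 4 with C and 3 with G. The sequences below are the entries with enough counts to test, 1 entry that repeats a tested one, an undetected neighbour of miR2939 and an entry called when no filter on low counts was used. They are written 5′ to 3′ with the seed, bases 2 to 8, in capitals.
miR2939: uAACGCACaacacuaagccau
miR4243: uUGAAAUUguagauuucguac
miR4228-5p: aUAGCCUUgaacgccgucguu
miR4228-3p: uCGGAUGCgaaacgguggugu
miR1886-1: uGAGAGAAgugagaugaaauc
miR1886-2: uGAGAUGAaaucuuugauugg
miR1886-3: aAUUAAAGauuucaucuuacu
miR2112-5p: cGCAAAUGcggauaucaaugu
miR2112-3p: cUUUAUAUccgcauuugcgca
miR1888a: uAAGUUAAgauuugugaagaa
miR2933a and miR2933b: gAAAUCGGagaggaaauucgcc
miR4245: aCAAAGUUuuauacugacaau
miR3440b-3p: uGGAUUGGucaagggaagcgu
Among the 30, 27 sequences occurred once in the genome. Only 5 entries shared a seed with any other entry of the tables: miR2933a with miR2933b, miR1886-1 with miR5640, miR1886-2 with miR774b-5p, and miR3932a with miR3932b-3p. The set is thus a range of numbers and not a sequence family.

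The files held whole-number counts per mature entry. These summed to 1280294 to 1588242 per WT library, 130482 to 195415 per se-2 library and 637283 to 908635 per chr2 library. The sums cover miRNA entries alone and mix sequencing depth with the miRNA content of a library. In whole-leaf RNA, fewer cells with a miRNA and less of it per cell cannot be told apart. Levels are given as CPM, counts scaled to a common library total, with TMM factors, and this scale takes the average miRNA as constant. A second scale, reference scaling, sets each library by its summed late entries (4005 to 4320 counts in se-2, 5761 to 6425 in WT and 3703 to 5272 in chr2) and takes those as constant. Between the first and second scale the median log2 change of all 270 tested entries moved from 0.11 to -2.30 in se-2 against WT and from -0.155 to -0.519 in chr2 against WT. Without miR8175, the most abundant late entry, the reference medians were -1.95 and 0.185, so the direction in chr2 turned on that entry. Which of these assumptions holds cannot be told from miRNA counts.

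Counts were found for 23 of the 30 entries, 76.7%, against 89.9% of all 427 entries, 87.1% of the 101 entries of families miR771 to miR870 and 90.4% of the 115 late entries. WT had counts for 20 of the 30, se-2 for 18 and chr2 for 22, and 17 entries had counts in all 3 genotypes. In single libraries, 18 to 19 of the 30 were detected in WT, 14 to 17 in se-2 and 17 to 21 in chr2. The order changed at equal totals: thinned to 130482 counts, the smallest library total, the calculated number was 11.6 ± 0.597 entries for WT, 15.1 ± 1.09 for se-2 and 11.3 ± 0.781 for chr2 (mean ± SD, n = 3). Over all 427 entries the thinned numbers had the same order (WT 280.7, se-2 304.9, chr2 274.0), as had those of the late entries (59.4, 76.4 and 54.8). Families miR771 to miR870 did not share this order. Their thinned se-2 mean was 57.2, between 58.35 for WT and 55.6 for chr2, with overlapping libraries. The 30 entries together made up 0.0481 ± 0.0085% of WT counts, 0.0973 ± 0.0070% of se-2 counts and 0.0457 ± 0.0035% of chr2 counts (SD, n = 3). They took a larger part of the counts in each se-2 library (0.0893 to 0.102%) than in any WT (0.0400 to 0.0570%) or chr2 library (0.0419 to 0.0487%). The mean share was larger in se-2 than in WT for the comparison sets too, at 1.5 against 0.843% for families miR771 to miR870 and 2.63 against 0.444% for late entries.

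**Figure D1:**
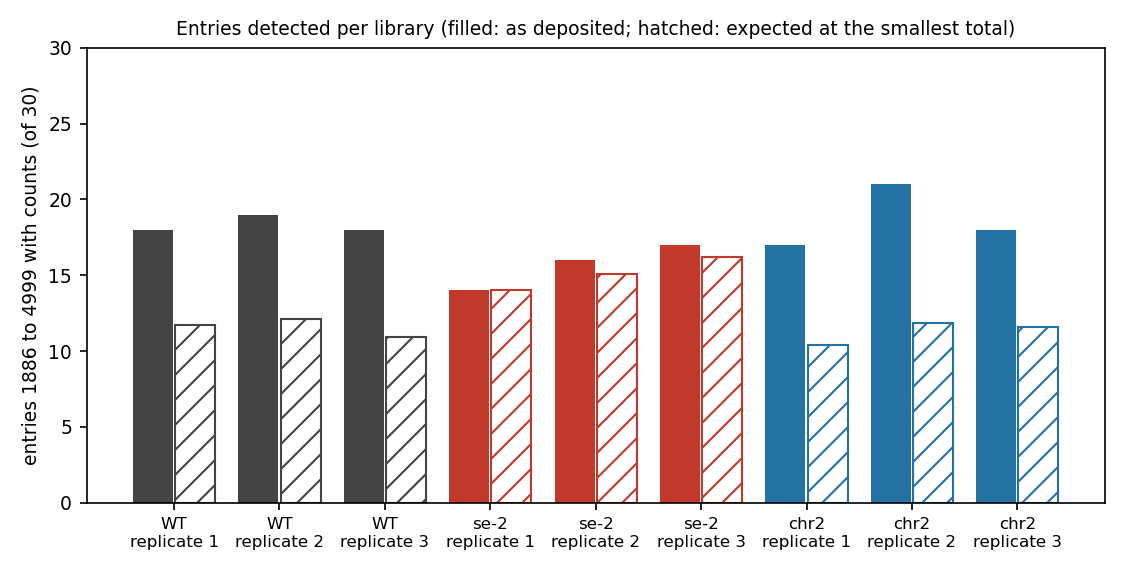
Number of the 30 entries from miR1886 to miR4999 with at least 1 count in each of the 9 libraries (y axis), as deposited (filled bars) and as calculated for 130482 counts (hatched bars). Deposited numbers run from 14 to 17 in se-2 and from 17 to 21 in WT and chr2, while the hatched bars are highest in se-2.

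Of the 23 entries with counts, 11 passed the filter on low counts and were tested, 1 (miR1886-2) repeated the counts of a tested entry in every library, and 11 fell below the filter. The filter asks for about 12.3 CPM in at least 3 libraries. Because miR2939 and both arms of miR4228 reached 3 such libraries through se-2, their passing the filter already implied a difference, and a tally over the tested entries is a description. By edgeR's quasi-likelihood test at an adjusted p of 0.05, 8 of the 11 were higher in se-2 than in WT, where 42.2% of all tested entries were higher, and 1 was lower, where 30.4% were. The 8 include both miR2933 entries, which share 1 mature sequence. The median log2 change of the 11 was 1.59, against 0.11 for all entries, 0.65 for families miR771 to miR870 and 2.17 for late entries. With reference scaling, 2 of the 11 were higher (5.56% of all tested entries) and 6 were lower (71.1%), with a median of -0.79 against -2.30 for all entries. In chr2 against WT, 0 of 11 were higher (10.4% of all) and 1 was lower (19.6%) by edgeR's test. At an unadjusted p below 0.05, 1 entry was higher in chr2 (miR4245) and 1 lower (miR2112-3p), a tally not made over all entries. DESeq2 called 1 of the 11 higher and 0 lower, against 37 higher and 31 lower of all 270 tested entries. Between the mutants, 8 of the 11 were higher (47.4% of all) and 1 lower (33.0%) in se-2 than in chr2, the same se-2 libraries serving in both comparisons. With reference scaling 2 were higher (11.5%) and 4 lower (59.3%) in se-2 than in chr2, and 0 were higher (4.44%) and 2 lower (39.6%) in chr2 than in WT.

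**Figure D2:**
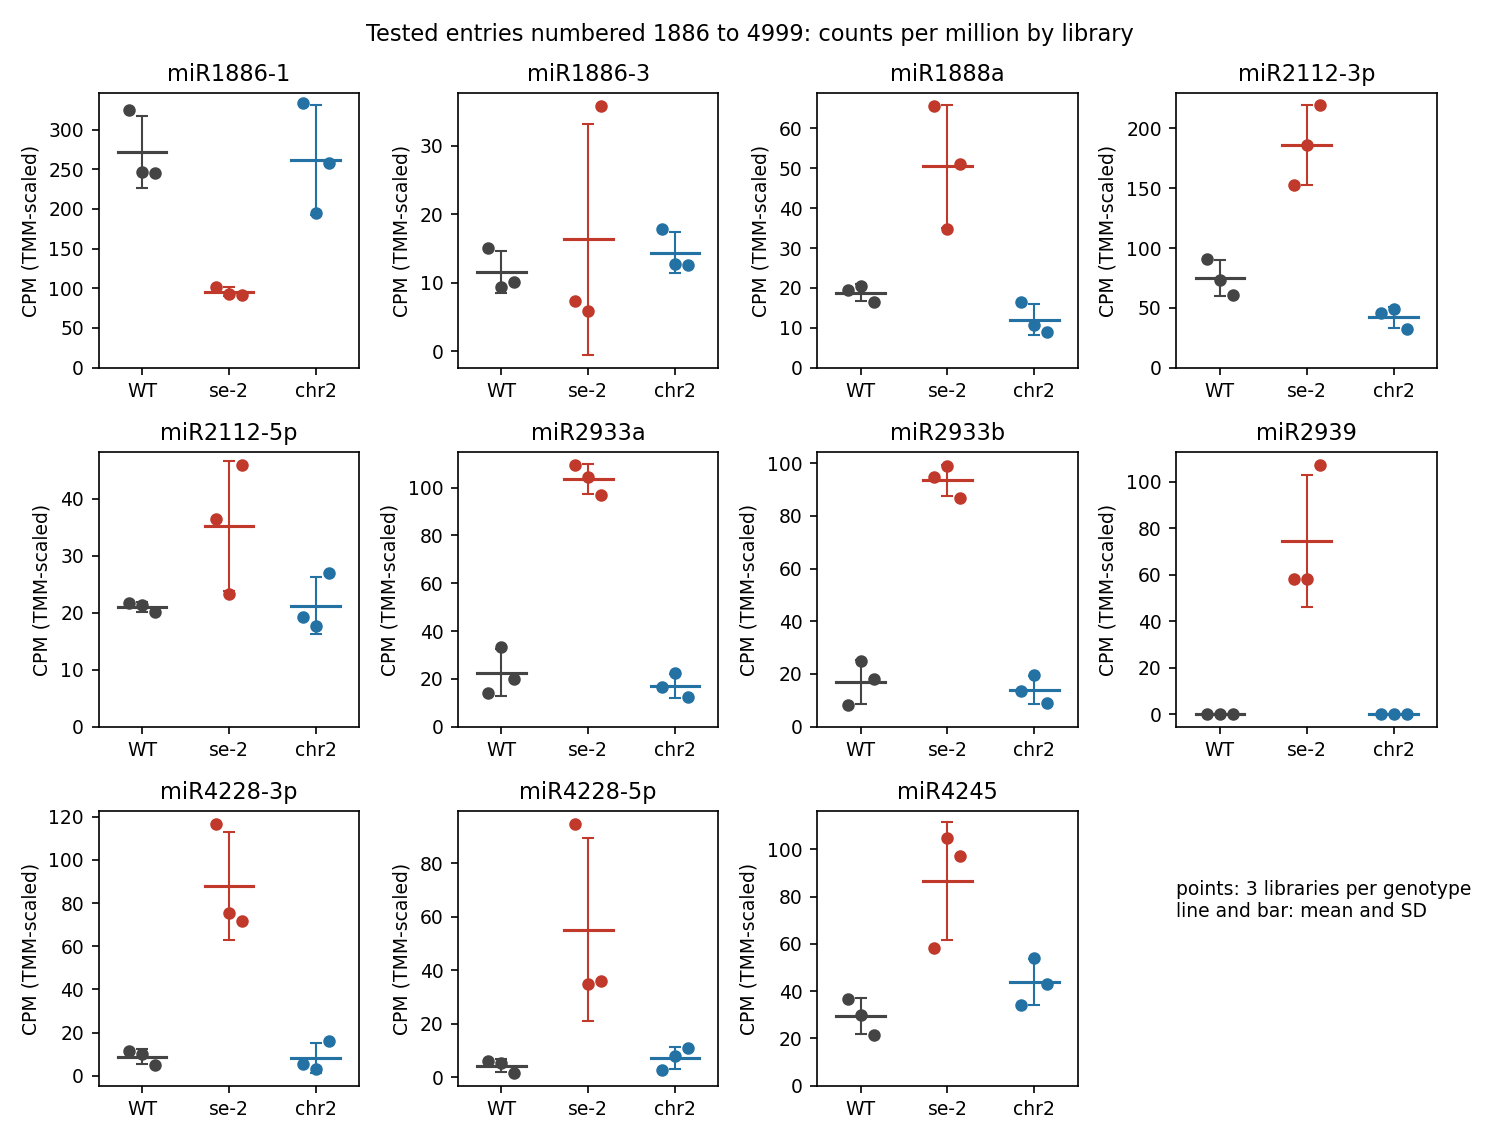
TMM-scaled CPM (y axis, a separate scale in each panel) of the 11 tested entries in the 3 libraries of each genotype (points), with mean and SD (line and bar). miR2939 has points above 0 in se-2 alone, both miR4228 arms lie highest in se-2, and miR1886-1 lies lowest there.

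The entry miR2939 was counted in se-2 alone. Its counts were 8, 10 and 21 in the 3 se-2 libraries and 0 in every WT and chr2 library. In CPM these were 58.3, 58.1 and 107, a mean of 74.6 ± 28.4 (SD, n = 3). The largest se-2 value came from replicate 3, and the smallest was still far above what a count of 0 allows in the other genotypes. Taking 3 counts over the 3 libraries of a group put that limit at 0.770 CPM in WT and 1.30 CPM in chr2. The se-2 mean of miR2939 was 96.9-fold the WT limit and 57.4-fold the chr2 limit. These ratios bound the WT and chr2 levels alone and leave out the spread of the se-2 libraries. With reference scaling the same ratios were 18.8-fold and 14.2-fold, and without miR8175 23.3-fold and 10.7-fold. By edgeR's quasi-likelihood test the adjusted p was 8.1e-11 against WT and 6.1e-10 against chr2, and it was at most 2.2e-05 and 6.2e-05 under the alternatives run. A total of 39 counts carries these values, and miR2939 passed the filter through se-2 alone. The p-values are therefore no independent support for the difference.

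The mature miR2939 lies at chr5:19567038-19567058 on the plus strand, between annotated genes apart from its own hairpin, and occurs once in the genome. Its hairpin of 125 nt (chr5:19566960-19567084) is shown because it carries the clearest difference in the set, with the mature sequence in capitals.
MIR2939: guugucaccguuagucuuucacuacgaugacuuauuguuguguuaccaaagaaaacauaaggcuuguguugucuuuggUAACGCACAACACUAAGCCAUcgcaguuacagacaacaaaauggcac
In the minimum free energy fold (-48.4 kcal/mol), 17 of the 21 mature bases were paired, each with the other arm. The last 21 bp of the hairpin overlap AT5G48280, a protein-coding gene on the minus strand (chr5:19567064-19567688). A second hairpin of the set, MIR4243 (chr5:19567208-19567386), starts 123 bp further on the same strand, and its mature sequence lies opposite the coding sequence of AT5G48280. miR4243 had 0 counts in all 9 libraries, se-2 included, so the 2 neighbouring hairpins did not share the pattern at this depth.

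**Figure D3:**
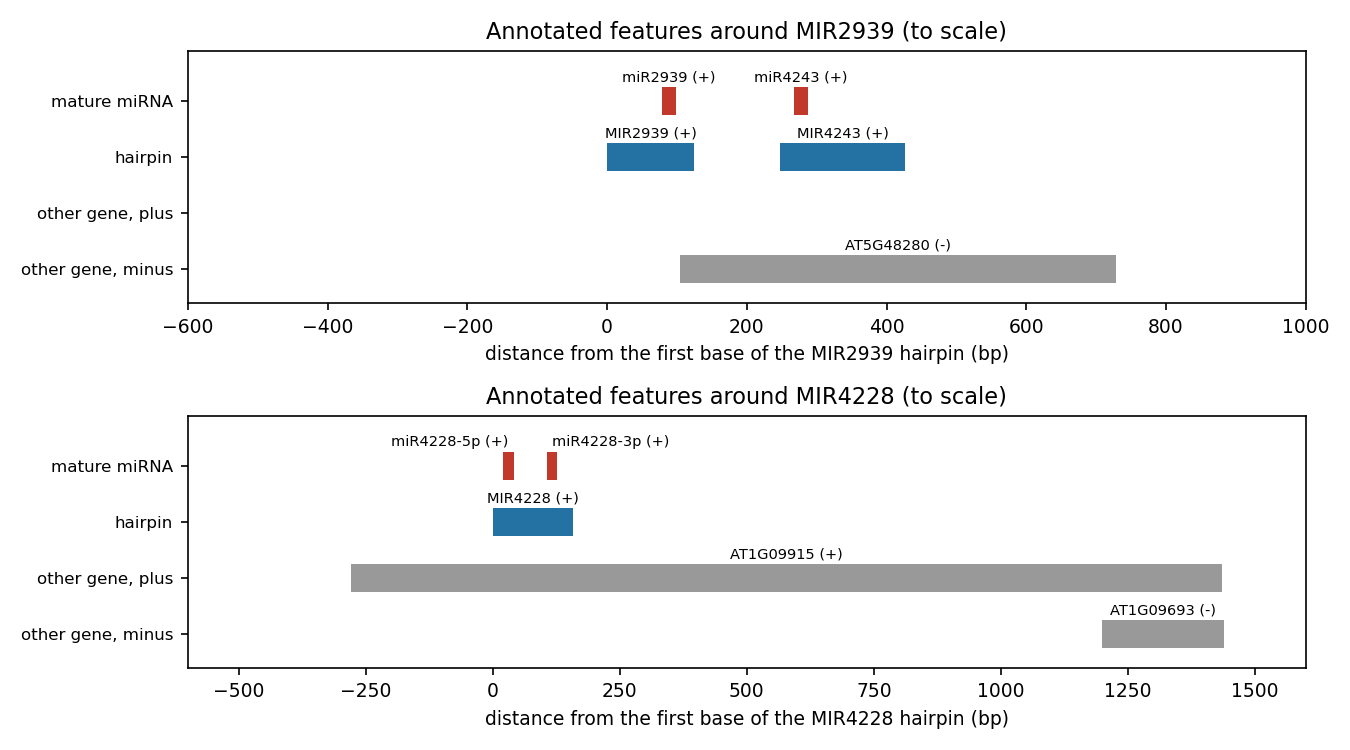
Annotated features around MIR2939 (top) and MIR4228 (bottom), drawn to scale against the distance in bp from the first base of each hairpin (x axis), with strands in brackets. MIR2939 and MIR4243 lie 123 bp apart on the strand opposite AT5G48280, while MIR4228 lies inside AT1G09915 on the same strand.

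Both arms of miR4228 were more abundant in se-2 by CPM. Each passed the filter through se-2, so their p-values for se-2 below are no independent support for the difference. miR4228-3p had 15, 12 and 7 counts in WT and 16, 13 and 14 in se-2, with 4, 3 and 9 in chr2. Scaled to CPM, these were 11.3, 10.3 and 5.02 in WT and 117, 75.5 and 71.5 in se-2, with 5.49, 2.94 and 16.1 in chr2. Each se-2 library thus lay above all WT and chr2 libraries, which overlapped. The log2 change in se-2 was 3.27 against WT (standard error 0.43, 9.64-fold, adjusted p = 9.6e-08) and 3.57 against chr2 (standard error 0.48, adjusted p = 1.5e-07) by edgeR's test. With reference scaling the change against WT was 0.88 and missed the limit (adjusted p = 0.056), and without miR8175 it was 1.22 (adjusted p = 0.0083). Against chr2 it was 1.53 with reference scaling (adjusted p = 0.0074) and 1.18 without miR8175 (adjusted p = 0.029).

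Its partner, miR4228-5p, had 8, 6 and 2 counts in WT and 13, 6 and 7 in se-2, with 2, 8 and 6 in chr2. In CPM these were 6.01, 5.13 and 1.43 in WT and 94.7, 34.9 and 35.8 in se-2, with 2.74, 7.83 and 10.8 in chr2. All se-2 libraries again lay above the rest, replicate 1 by the widest margin. The log2 change was 3.61 against WT (standard error 0.55, 12.2-fold, adjusted p = 9.8e-07) and 2.88 against chr2 (standard error 0.54, adjusted p = 2.6e-05). With reference scaling it was 1.23 against WT (adjusted p = 0.046) and 0.83 against chr2 (adjusted p = 0.18), and without miR8175 1.57 (adjusted p = 0.011) and 0.48 (adjusted p = 0.46). Neither arm was called in chr2 against WT: the 3p arm had a log2 change of -0.30 (adjusted p = 0.71) and the 5p arm 0.73 (adjusted p = 0.37). With reference scaling these were -0.65 and 0.40, and without miR8175 0.045 and 1.09, none of them called. miR2939 and the miR4228 arms were the 3 entries of the set with more raw counts summed over se-2 than over WT (43 against 34 for the 3p arm and 26 against 16 for the 5p arm), although se-2 had the smaller totals. How many entries outside the set had this excess was not counted.

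Both arms have 21 nt, so their counts can be set side by side. The 3p arm made up 69.9 ± 6.9% of the counts of the 2 arms in WT and 63.4 ± 7.2% in se-2, with 51.3 ± 21.1% in chr2 (SD, n = 3), and the ranges overlapped. The hairpin (chr1:28889375-28889532, plus strand) lies within AT1G09915, which RefSeq annotates as a miscellaneous RNA, on the same strand (chr1:28889097-28890809). It is shown with the 5p sequence (chr1:28889395-28889415) and the 3p sequence (chr1:28889481-28889501) in capitals.
MIR4228: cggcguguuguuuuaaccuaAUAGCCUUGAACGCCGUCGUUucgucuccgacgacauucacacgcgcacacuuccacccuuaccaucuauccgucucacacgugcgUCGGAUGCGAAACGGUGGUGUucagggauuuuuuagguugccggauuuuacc
Of the 21 bases of each arm, 18 of the 5p and 20 of the 3p were paired in the minimum free energy fold (-58.6 kcal/mol).

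With TMM, the one entry called lower in se-2 came from MIR1886, and with reference scaling it was 1 of the 6 called lower. miR1886-1 had 432, 289 and 342 counts in WT and 14, 16 and 18 in se-2, with 243, 199 and 144 in chr2. Its level was 272 ± 45.1 CPM in WT, 95.7 ± 5.53 CPM in se-2 and 262 ± 69.4 CPM in chr2 (SD, n = 3). The se-2 libraries (92.0 to 102 CPM) lay below every WT (245 to 324 CPM) and chr2 library (195 to 333 CPM). By edgeR's test the log2 change in se-2 was -1.51 against WT (standard error 0.28, 2.86-fold lower, adjusted p = 1.7e-05) and -1.45 against chr2 (standard error 0.28, adjusted p = 3.5e-05). With reference scaling these were -3.91 and -3.46, and without miR8175 -3.57 and -3.83. In chr2 against WT the change was -0.06 (standard error 0.21, adjusted p = 0.87) with TMM, -0.45 (adjusted p = 0.11) with reference scaling and 0.26 (adjusted p = 0.41) without miR8175.

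miR1886-2 starts 9 bases further along the same hairpin arm, overlaps miR1886-1 by 12 nt and had the same count in each of the 9 libraries. Its row is therefore no second measurement, and how the 2 overlapping entries were counted is not given in the sources used here. miR1886-3, from the opposite arm, had 20, 11 and 14 counts in WT and 1, 1 and 7 in se-2, with 13, 13 and 7 in chr2. In CPM the se-2 libraries were at 7.29, 5.81 and 35.8, on both sides of the 9.41 to 15.01 of WT. No contrast of miR1886-3 passed with TMM (se-2 against WT log2 0.61, adjusted p = 0.35), though with reference scaling it was lower in se-2 (-1.74, adjusted p = 0.0074, and -1.41, adjusted p = 0.020, without miR8175). Without se-2 replicate 3 the TMM value was -0.83, so its direction rested on that library. On chromosome 2, which is not the genotype chr2, the 3 entries lie at chr2:15611873-15611893, chr2:15611882-15611902 and chr2:15611953-15611973 on the plus strand, in a non-coding part of an exon of AT2G37160.

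MIR2112 gave the only entry called with TMM in chr2 against WT. This hairpin lies on the minus strand of chromosome 1, in an intron of SPPL4 (AT1G01650), which encodes a protease of the signal peptide peptidase type, with miR2112-5p at chr1:234126-234146 and miR2112-3p at chr1:234017-234037. miR2112-3p was at 90.8, 73.6 and 60.9 CPM in WT, 153, 186 and 220 CPM in se-2 and 45.3, 48.9 and 32.3 CPM in chr2. The 3 genotypes did not overlap, with se-2 highest and chr2 lowest. In chr2 against WT the log2 change was -0.80 (standard error 0.25, adjusted p = 0.015). This call was lost when WT replicate 1 (adjusted p = 0.28), se-2 replicate 2 (0.077), chr2 replicate 1 (0.13) or chr2 replicate 3 (0.27) was left out. It was also lost with DESeq2 (adjusted p = 0.087), its size factors (0.072), total counts (0.070), no filter (0.065), the 2 groups alone (0.11) and identical rows kept (0.072). With reference scaling the change was -1.15 (adjusted p = 0.0057), and without miR8175 it was -0.43 (adjusted p = 0.25). In se-2 against WT the log2 change was 1.32 (standard error 0.26, adjusted p = 4.1e-05) with TMM and -1.05 (adjusted p = 0.0033) with reference scaling, or -0.73 (adjusted p = 0.017) without miR8175, so its direction depended on the scale. Against chr2 the values were 2.13 (adjusted p = 1.1e-07) with TMM, 0.10 (adjusted p = 0.80) with reference scaling and -0.30 (adjusted p = 0.39) without miR8175.

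miR2112-5p was at 21.8, 21.4 and 20.1 CPM in WT, 36.4, 23.2 and 46.0 CPM in se-2 and 19.2, 17.6 and 26.9 CPM in chr2. No contrast passed with TMM (se-2 against WT 0.75, adjusted p = 0.099), while with total counts it was called higher in se-2 (0.89, adjusted p = 0.046). With reference scaling, miR2112-5p was lower in se-2 (-1.62, adjusted p = 0.00032, and -1.29, adjusted p = 0.0024, without miR8175). The 3p arm held 77.8 ± 2.7% of the counts of both arms in WT and 84.1 ± 4.2% in se-2 (SD, n = 3). For chr2 the mean was 66.1%, with libraries from 54.5 to 73.5%, below the 75.2 to 80.7% of WT, and the se-2 libraries from 80.8 to 88.9%, above it. An arm share does not depend on how libraries are scaled. With 3 libraries against 3, an exact permutation test cannot give a p below 0.1, so this order is a description.

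Of the MIR1888 hairpins, MIR1888a gave enough counts to test. miR1888a (chr5:7168879-7168899, plus strand, in an intron of AT5G21100) was at 19.5, 20.5 and 16.5 CPM in WT, 65.6, 34.9 and 51.1 CPM in se-2 and 16.5, 10.8 and 8.97 CPM in chr2. Each se-2 library lay above the others. The log2 change in se-2 against WT was 1.40 (standard error 0.38, adjusted p = 0.0019) with TMM and -0.99 (adjusted p = 0.010) with reference scaling, and without miR8175 it was not called (-0.65, adjusted p = 0.10). Against chr2 it was 2.02 (adjusted p = 0.00012) with TMM and -0.01 (adjusted p = 0.98) with reference scaling, or -0.38 (adjusted p = 0.43) without miR8175. chr2 against WT was not called with TMM (-0.62, adjusted p = 0.17) and was lower with reference scaling (-0.98, adjusted p = 0.021), a call that was lost without miR8175 (-0.27, adjusted p = 0.59). miR1888b, from an intron of AT3G60960, had 11, 4 and 7 counts summed over WT, se-2 and chr2, too few to test.

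The miR2933 entries have the same mature sequence of 22 nt and cannot be told apart by it. Besides MIR2933a (chr1:11901467-11901488) and MIR2933b (chr3:17402794-17402815), both between genes, the sequence occurs at 7 other places in the genome, none in an annotated gene. The hairpins differ at 1 of 112 positions, and the first 13 bases of the mature sequence stand 3 times in the MIR2933a hairpin, shown here with the mature sequence in capitals.
MIR2933a: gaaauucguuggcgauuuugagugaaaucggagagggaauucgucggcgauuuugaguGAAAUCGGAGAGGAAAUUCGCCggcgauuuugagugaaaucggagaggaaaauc
Counts of miR2933b were 57.9 to 94.4% of those of miR2933a in the 9 libraries, and the pair is not 2 independent observations, although the tallies and medians above hold both. miR2933a was at 14.3, 33.4 and 20.1 CPM in WT, 109, 105 and 97.1 CPM in se-2 and 16.5, 22.5 and 12.6 CPM in chr2. All se-2 libraries lay above the rest, and WT and chr2 overlapped. The log2 change in se-2 against WT was 2.20 (standard error 0.33, adjusted p = 7.8e-07) for miR2933a and 2.46 (standard error 0.37, adjusted p = 8.2e-07) for miR2933b. With reference scaling they were -0.19 (adjusted p = 0.64) and 0.07 (adjusted p = 0.88), and without miR8175 0.15 (adjusted p = 0.69) and 0.41 (adjusted p = 0.34). Neither was called in chr2 against WT (-0.31 and -0.17 with TMM, -0.65 and -0.52 with reference scaling, 0.061 and 0.20 without miR8175). Against chr2, se-2 was higher by 2.51 and 2.63 with TMM (adjusted p = 4.2e-07 and 1.1e-06) and neither call held with reference scaling (0.47 and 0.58, or 0.092 and 0.21 without miR8175).

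miR4245 lies at chr5:21161609-21161629 on the plus strand, in an intron of AT5G52070. It was at 36.8, 29.9 and 21.5 CPM in WT, 58.3, 105 and 97.1 CPM in se-2 and 34.3, 53.8 and 43.1 CPM in chr2. The se-2 libraries lay above all others, and the chr2 libraries overlapped those of WT. The log2 change in se-2 against WT was 1.59 (standard error 0.32, adjusted p = 6.1e-05) with TMM and -0.79 (adjusted p = 0.046) with reference scaling, and without miR8175 it was not called (-0.46, adjusted p = 0.19). In chr2 against WT it was 0.59 (standard error 0.27, adjusted p = 0.088) with TMM, 0.26 (adjusted p = 0.50) with reference scaling and 0.96 (adjusted p = 0.011) without miR8175. It also passed the limit in DESeq2 (0.79, adjusted p = 0.048), with its size factors, with no filter, with the 2 groups alone, with 1 entry per sequence and with identical rows kept (0.75 to 0.84), and without WT replicate 1 (0.99, adjusted p = 0.0075), se-2 replicate 2 (0.78, adjusted p = 0.027), chr2 replicate 1 (0.96, adjusted p = 0.018) or chr2 replicate 3 (0.83, adjusted p = 0.037). Its excess in se-2 over chr2 (0.99, adjusted p = 0.0061) was lost without replicate 2 of se-2 or replicate 1 or 3 of chr2 (in this order adjusted p = 0.11, 0.12 and 0.075). It was lost too with DESeq2 (0.44, adjusted p = 0.26), its size factors (0.43, adjusted p = 0.21) and 1 entry per sequence (0.59, adjusted p = 0.078), and turned to -1.04 (adjusted p = 0.013) with reference scaling and -1.43 (adjusted p = 0.00025) without miR8175.

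**Figure D4:**
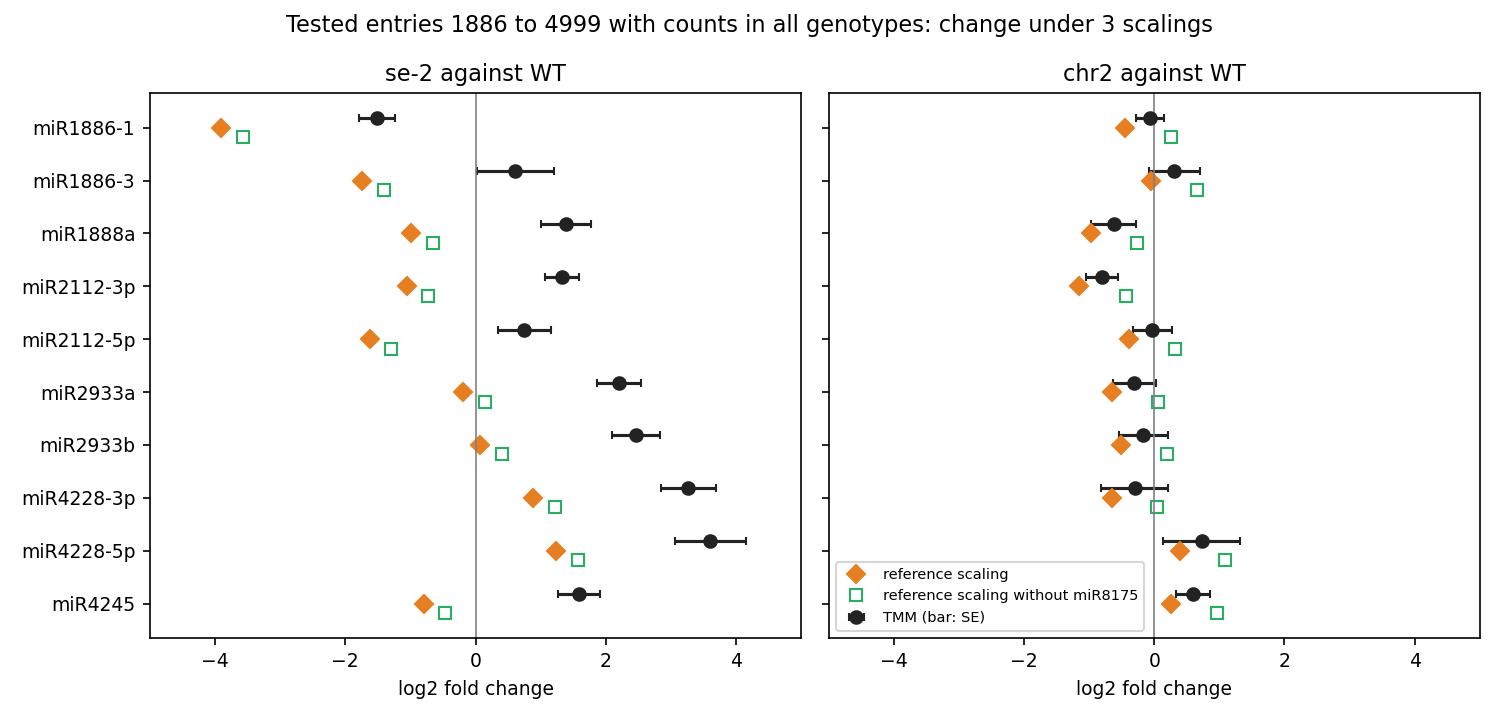
Log2 fold change against WT (x axis) of the 10 tested entries with counts in each genotype, for se-2 (left) and chr2 (right), with TMM (circles, bars are the standard error) and reference scaling with and without miR8175 (diamonds and open squares). In se-2 the 2 miR4228 arms stay above 0 on each scale and miR1886-1 below it, while miR1888a, miR2112-3p and miR4245, called higher with TMM, change sign on both reference scales and miR2933a on the one with miR8175.

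Below the filter stood 11 entries with 1 to 22 counts over all 9 libraries. The miR3440b arms, from an exon of the pseudogene AT3G18145, were the nearest to a difference. miR3440b-3p had 9 counts in WT and 8 in se-2, with 2 in chr2, or 2.31 ± 0.717, 16.5 ± 5.88 and 0.783 ± 0.706 CPM (SD, n = 3). With TMM and no filter it was called higher in se-2 than in WT (log2 2.79, standard error 0.86, adjusted p = 0.0028). It was also called higher there than in chr2 (3.91, adjusted p = 0.00065). Set against the summed late entries, the se-2 libraries of miR3440b-3p overlapped those of WT and still lay above every chr2 library. The excess over WT thus depended on the scale. miR3440b-5p, with 14, 5 and 3 counts, was called against chr2 alone (2.71, adjusted p = 0.029). Its libraries overlapped between all genotypes both in CPM and when set against the late entries, and se-2 replicate 2 had 0 counts. No other entry below the filter was called in any comparison with TMM, and reference scaling was not tested for these entries.

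Of the rest, miR3932a had 16 counts in WT and 1 in se-2, with 2 in chr2. It has the same mature sequence as miR3932b-3p, yet in WT it had 5, 5 and 6 counts where miR3932b-3p had 31, 18 and 33. How reads of this shared sequence were assigned cannot be told from the counts. miR4221 had 14, 2 and 5 counts in the 3 genotypes. From MIR3434, in an intron of a gene for an alpha subunit of the endocytic AP2 adaptor (AT5G22770), the 5p arm had 13, 1 and 6 counts and the 3p arm 7, 0 and 4. miR2934-5p had 1, 0 and 4 counts, from a hairpin that lies opposite MIR782, and miR3933 had 2, 0 and 1. miR2936, which lies in the coding sequence of the late embryogenesis abundant gene SAG21 (AT4G02380), had 2 counts in a single chr2 library and miR4239 had 1. The absence of miR2934-5p, miR3434-3p and miR3933 from se-2 was not detectable as a difference at this depth, since 3 counts of the summed se-2 total correspond to 6.06 CPM before TMM scaling, above the rate of each of them in WT and chr2.

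The entries miR1887, miR2934-3p, miR2937, miR2938, miR4227, miR4240 and miR4243 had 0 counts in every library. A count of 0 over the libraries of a genotype allows a level of up to 0.706 CPM in WT, up to 6.06 in se-2 and up to 1.25 in chr2, before TMM scaling and for counting error alone. These 7 entries were not detectable at this depth in leaves of any genotype. Of the 7, 4 lie between annotated genes, among them miR1887, whose hairpin starts 1388 bp from MIR4239 on chromosome 4. Of the 12 tested or repeated entries, 3 lie between genes and 9 within a gene on the same strand, and entries of the same hairpin share their place. Over all 30 entries, 11 lie between genes and 16 within a gene on the same strand. The median GC content was 42.9% in the tested or repeated entries and in the undetected ones alike, and the median fold energies of their hairpins were -37.1 and -36.1 kcal/mol per 100 nt.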

How the data were processed

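The authors deposited 1 table per library with whole-number counts for 427 mature miRNA entries, without normalization. Bowtie 1.1.2 and TAIR10 are named in the submitters' processing notes. Small RNA of 19 to 24 nt had been selected on a gel, per the labels' protocols. How reads were assigned to entries, and how reads with several matches were treated, was not given in the sources used here. Of 384 entries with counts, identical count rows were kept once (368 profiles). Entries were filtered with filterByExpr (270 left) and tested in 1 fit of all 9 libraries with genotype as the only term, by edgeR 4.0.16 (robust quasi-likelihood, TMM, limma 3.58.1, R 4.3.3), with Benjamini-Hochberg adjustment over the 270 and a limit of 0.05. Alternatives were reference scaling with and without miR8175, DESeq2 1.42.0 and its size factors, total counts, no filter, single pairs of genotypes, 1 entry per sequence, a replicate block and leaving out each library. Keeping identical rows was added after seeing the data. Standard errors were derived from the quasi-likelihood F. Replicates of a genotype differed beyond sampling noise (chi-square of 2.85 to 95.5 per degree of freedom), so none repeated the counts of another. These values cannot tell whether the replicates came from separate plants or separate RNA samples. Hairpins were folded with RNAfold 2.7.2. Sequences and coordinates are those of the RefSeq annotation of TAIR10.1. Scripts were tested on simulated counts. Each of the 30 entries is named: tested entries with their contrasts, low entries with summed counts, and undetected ones by name. The members and the comparison sets were chosen with earlier results of these data known.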

Additional observations from a re-analysis of the deposited data

How the results depend on the processing

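For the 11 tested entries, 601 values of 32 contrasts were recomputed, of which 490 kept their direction and side of the limit, 28 lost a call, 13 gained one and 70 changed sign. Of these 70, 20 had a call on at least 1 of the 2 scales, and all 20 came with reference scaling. In se-2 against WT, with and without miR8175, they were miR1886-3 (-1.74 and -1.41), miR1888a (-0.99 and -0.65), miR2112-3p (-1.05 and -0.73), miR2112-5p (-1.62 and -1.29), miR4245 (-0.79 and -0.46) and, with miR8175 only, miR2933a (-0.19). In se-2 against chr2 they were miR1886-3 (-1.69 and -2.08), miR1888a (-0.013 and -0.38), miR2112-5p (-1.23 and -1.61), miR4245 (-1.04 and -1.43) and, without miR8175 only, miR2112-3p (-0.30). Late entries held a mean of 2.63% of se-2 counts, against 0.444% in WT and 0.604% in chr2. Scaling by them therefore gives every se-2 change a lower value than TMM does. The other 50 had no call on either side. In chr2 against WT, miR1886-1 (-0.059) was at 0.13 with DESeq2 and with its size factors, 0.26 with reference scaling without miR8175, 0.081 with no filter, 0.16 with the 2 groups alone, 0.087 with 1 entry per sequence and 0.094 with identical rows kept. In the same order miR2112-5p (-0.032) was at 0.17, 0.16, 0.32, 0.12, 0.20, 0.12 and 0.14, with 0.056 for total counts. miR2933b (-0.17) was at 0.003 with DESeq2, 0.038 with its size factors, 0.20 with reference scaling without miR8175, 0.079 with the 2 groups alone and 0.018 with identical rows kept. Without miR8175, miR2933a was at 0.061 and miR4228-3p at 0.045, and miR1886-3 was at -0.045 with reference scaling. In se-2 against chr2, miR1886-3 was at -0.28 with DESeq2, -0.26 with its size factors and -0.095 with 1 entry per sequence. Leaving out a library gave, in chr2 against WT, -0.12 to 0.28 for miR1886-1, -0.037 to 0.24 for miR2112-5p, -0.45 to 0.060 for miR2933a, -0.39 to 0.24 for miR2933b and -0.88 to 0.35 for miR4228-3p. For miR1886-3 it gave -0.83 to 1.04 in se-2 against WT and -1.13 to 0.59 in se-2 against chr2. The cause was not tested.

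Of the 11, entries called higher and lower in se-2 against WT (8 and 1) became 2 and 6 with reference scaling and 3 and 4 without miR8175. Against chr2 (8 and 1) they became 2 and 4 on both of these scales. Keeping identical rows gave 2 lower in each, since miR1886-2 was then counted too. In chr2 against WT (0 and 1), 1 was higher with DESeq2, with its size factors in edgeR, with reference scaling without miR8175, with no filter, with the 2 groups alone, with 1 entry per sequence and with identical rows kept. In all of these but 1 entry per sequence, and with total counts, 0 were lower, and reference scaling gave 2 lower. The cause was not tested. Leaving out a library gave 8 to 9 higher and 1 lower in se-2 against WT, 0 to 1 higher and 0 to 1 lower in chr2 against WT, and 7 to 9 higher and 1 lower in se-2 against chr2. Correlations of same-numbered libraries ran from -0.207 to 0.084. Without differently numbered pairs beside them, they cannot tell whether the replicate numbers pair the libraries. With a replicate block the calls were again 8 and 1, 0 and 1, and 8 and 1. Over all 270 entries, the split of 28 higher and 53 lower in chr2 against WT was 12 and 107 with reference scaling, 48 and 25 without miR8175 and 46 and 37 with size factors as in DESeq2. For se-2 against WT the all-entry split of 114 and 82 was 15 and 192 with reference scaling and 28 and 182 without miR8175. For se-2 against chr2 the all-entry split of 128 and 89 was 31 and 160 with reference scaling and 21 and 175 without miR8175.

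Detection with at least 3 counts gave 16.0 entries per WT library, 12.7 per se-2 library and 11.3 per chr2 library, and thinning gave 11.6 in WT and 11.3 in chr2. The share of counts without 1 library ranged from 0.0437 to 0.0522% for WT, 0.0948 to 0.101% for se-2 and 0.0442 to 0.0476% for chr2. Most entries rest on fewer than 50 counts per library, and in se-2 on fewer than 25, which limits the precision of each fold change.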
